A study of Mus musculus with 8 samples.

Results

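The aminoacyl-tRNA synthetase genes are 36 of the 37310 genes in the deposited count table, and were taken by their symbols, with the 20 cytosolic enzymes apart from the 16 mitochondrial enzymes, whose symbols end in 2. All 36 had a row in the table, and all 36 passed the filter on low counts, so no gene of the set was lost. The split into compartments is by symbol only. For aspartate, glutamine, glycine and lysine no mitochondrial gene was listed. Whether the genes listed as cytosolic for these amino acids also serve mitochondria was not tested. The cells were of the mouse mammary gland line NMuMG, which is epithelial and derived from normal tissue, and RNA-seq covered 4 conditions with 2 biological replicates each. Control cells and *Lnc-Nr6a1*-depleted cells were compared, untreated or after 2 h of TGF-β1 at 10 ng/ml, a factor that starts the epithelial to mesenchymal transition in this line. *Lnc-Nr6a1*, a long non-coding RNA within the *Nr6a1* gene, had been deleted in part by CRISPR-Cas9 and the edited cells were grown as clones. Whether the depleted libraries came from a single clone is not given in the sources used here. All conditions shared the NMuMG background and a medium with serum and insulin.

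Aminoacyl-tRNA synthetases join each amino acid to its tRNA, the step that fixes the genetic code during translation. Most amino acids are served by a cytosolic enzyme and by a separate mitochondrial enzyme, both encoded in the nucleus, which charge the tRNAs of the cytosolic and of the mitochondrial ribosomes. Several cytosolic enzymes are held together in the multisynthetase complex with the scaffold proteins AIMP1, AIMP2 and EEF1E1. Many cytosolic synthetase genes are known targets of ATF4, the transcription factor of the amino acid response, which binds composite C/EBP-ATF elements in their promoters.

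The totals of the 8 libraries ranged from 4297832 to 13574397 counts, and a count of 3 stood for 0.238 to 0.661 CPM (counts per 1000000 counts of a library, its size scaled by edgeR's TMM factor), a floor that covers counting error only. *Lnc-Nr6a1* had 3 and 14 counts in untreated control cells and 11 and 7 in the untreated depleted libraries, against 25 and 35 in treated control cells and 0 and 0 in the treated depleted libraries. These few counts overlapped between the untreated groups, so this gene could not be used to check the label of the untreated libraries. The paper reported, by RT-qPCR, that homozygous clones had lost all expression of the *lnc-Nr6a1* isoforms. As the label could be checked with this gene only in treated libraries, all depleted libraries are called libraries labelled knockout. The replicates of treated control cells differed most, with a median absolute difference of 0.33 in log2 CPM over all 13028 genes tested, against 0.20 to 0.22 in the other groups. The 6 epithelial markers summed to 5873 to 10928 CPM, carried by *Krt8* and *Krt18*, while *Epcam* was at 0 in 7 of the 8 libraries and *Krt7* was below 2 CPM. Markers of fibroblasts, immune cells, endothelium and adipocytes summed to at most 5.32 CPM in any library. Those of myoepithelium, mostly *Krt14*, summed to 2.42 to 5.67 CPM in untreated and 23.9 to 42.0 CPM in treated libraries, in both genotypes, and their part in the results was not tested. In bulk RNA, fewer cells that express a gene and less of its RNA per cell cannot be told apart.

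The promoter windows of the members were searched for the core of the composite C/EBP-ATF element, since this is the element through which ATF4 is known to act on these genes. RefSeq windows on GRCm38.p6, from 250 bases before to 50 bases after the start of transcription, were given for 26 of the 36 members, with 27 windows in all. *Cars*, *Hars*, *Hars2*, *Lars*, *Mars*, *Nars*, *Pars2*, *Rars*, *Vars* and *Wars* had no window. The letters TGATGNAA, searched on both strands, were found in 5 of the 26 members, all cytosolic, and in 3.97% of the 32851 windows of all genes. Stretches around matches are given below in the direction of each gene, with the match in capitals; a capital run that starts with TT is the motif on the opposite strand. A match describes these letters only and is not a binding site.
*Yars* (chr4:129189896-129189923, plus strand): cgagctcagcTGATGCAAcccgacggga
*Gars* (chr6:55037961-55037988, plus strand): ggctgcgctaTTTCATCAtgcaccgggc
*Aars* (chr8:111033841-111033868, plus strand): gcgggtcactTTTCATCAgagcgctctg
*Iars* (chr13:49682127-49682154, plus strand): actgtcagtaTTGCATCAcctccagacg
*Tars* (chr15:11399656-11399683, minus strand): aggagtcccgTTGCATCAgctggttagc

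The printed matches in *Gars*, *Tars*, *Iars* and *Aars* began between −30 and 9 bases from the start, and the match in *Yars* began 3 bases from it. The 5 genes encode the glycyl, tyrosyl, alanyl, isoleucyl and threonyl enzymes. No gene listed as mitochondrial and with a window held the letters, which says only that they are not in these 300 bases. The list rests on symbols, and whether genes listed as cytosolic, such as *Gars*, also encode a mitochondrial enzyme was not tested. The window of *Vars2*, the mitochondrial valyl enzyme, is given because *Vars2* was called in the comparisons that follow, while its cytosolic partner *Vars* had no window. It lies at chr17:35667543-35667842 on the minus strand, has a GC content of 57.0% and 28 CpG sites, and holds no match.
*Vars2*: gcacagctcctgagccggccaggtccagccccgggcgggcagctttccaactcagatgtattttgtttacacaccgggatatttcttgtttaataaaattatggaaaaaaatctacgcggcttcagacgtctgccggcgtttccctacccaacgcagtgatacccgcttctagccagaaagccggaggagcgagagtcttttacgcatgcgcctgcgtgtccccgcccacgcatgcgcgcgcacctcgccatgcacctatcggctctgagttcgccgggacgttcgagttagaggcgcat

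All 36 synthetases were transcribed in all 8 libraries, with counts between 30 and 6019 and no zero. Levels of different genes were compared as CPM per kilobase of annotated exon. By the mean over the libraries, 19 of the 20 genes with the highest levels were cytosolic. *Gars*, the glycyl enzyme, was the highest at 158 CPM per kilobase, followed by *Nars* (asparagine) at 128, *Tars* (threonine) at 108, *Sars* (serine) at 90.8 and *Kars* (lysine) at 84.6 CPM per kilobase. Genes next to each other in this order had overlapping ranges over the 8 libraries in 34 of 35 cases. *Yars*, the tyrosyl enzyme, was the lowest cytosolic gene at 15.4 CPM per kilobase. The only mitochondrial gene among the 20 was *Iars2*, at 18.3 CPM per kilobase, and 2018 bases of its exons overlap *Rab3gap2* on the other strand. At the low end were the mitochondrial enzymes *Ears2* (glutamate) at 3.04 and *Pars2* (proline) at 2.35 CPM per kilobase. Exons of 11 of the 36 genes overlap a gene on the other strand, and since the strand setting of the authors' counting is not given, the reads of such pairs cannot be told apart.

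**Figure D1:**
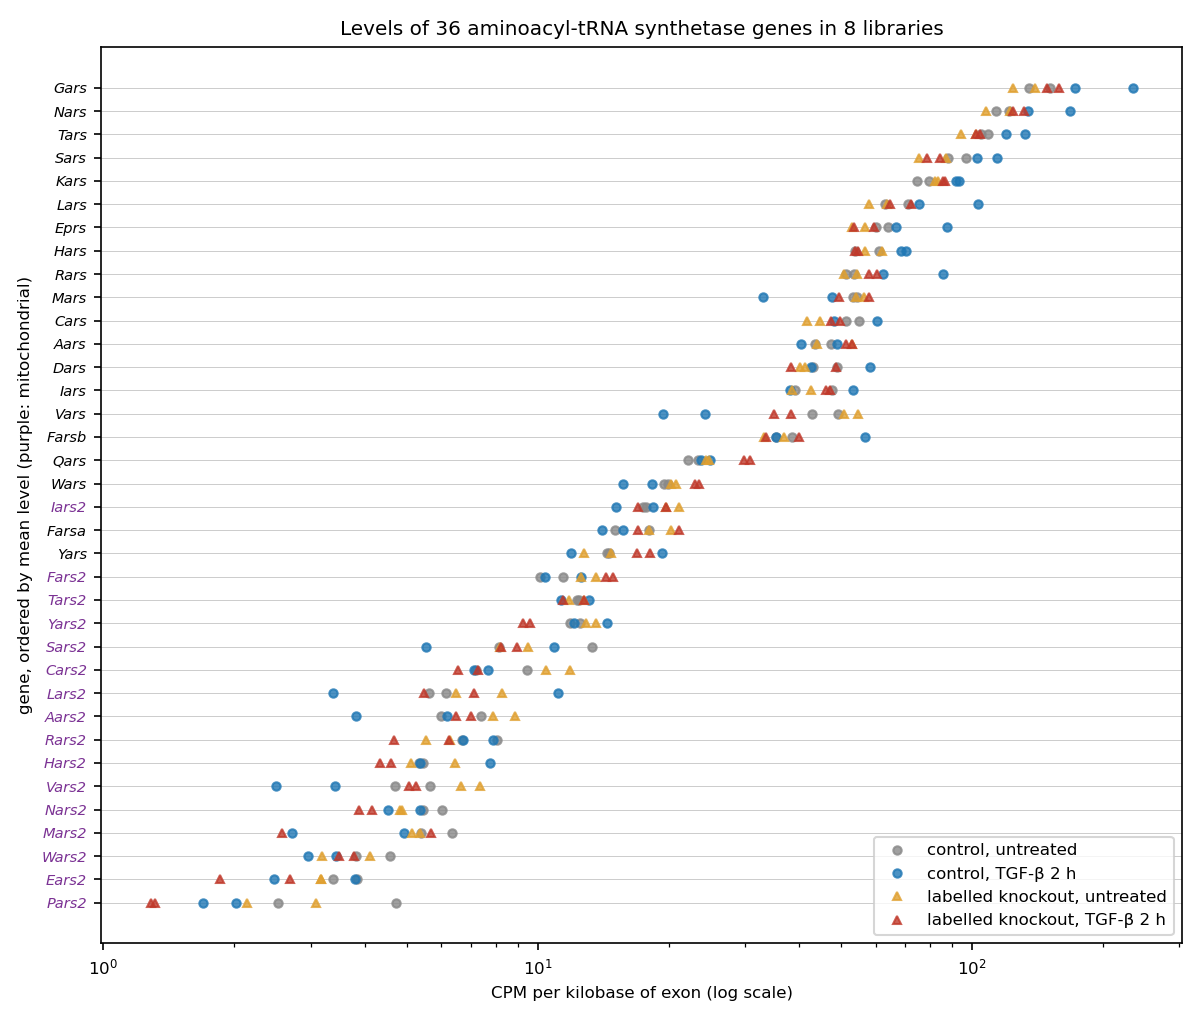
Level of each of the 36 synthetase genes in each of the 8 libraries, in CPM per kilobase of exon on a log scale, with genes ordered by their mean. Grey and blue circles are control cells, orange and red triangles libraries labelled knockout, and mitochondrial genes, written in purple, fill the lower end from *Fars2* to *Pars2* apart from *Iars2* at 18.3.

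For 13 amino acids a single cytosolic gene stood beside a mitochondrial gene of the same symbol ending in 2. *Farsa* and *Farsb*, the subunits that pair with *Fars2*, and *Eprs*, which serves the amino acids of both *Ears2* and *Pars2*, were not set in pairs. In 12 of the 13 pairs the cytosolic gene was higher per kilobase in all 8 libraries. The difference was widest for asparagine, where *Nars* was 18.9 to 37.0 times the level of *Nars2*, with a median of 25.1. Tyrosine was the exception, with *Yars* at 0.828 to 1.96 times the level of *Yars2*. For valine, *Vars* was 6.91 to 9.11 times the level of *Vars2*. The cytosolic genes together took 4070 to 5378 CPM of a library and the mitochondrial genes 463 to 574 CPM. The highest cytosolic sum and the lowest mitochondrial sum were both in replicate 2 of treated control cells. The ratio of the median cytosolic to the median mitochondrial level per kilobase was 11.8 in that library and at most 9.10 in the other 7.

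*Eprs*, which encodes the joined glutamyl and prolyl enzyme of the multisynthetase complex, had the most counts of the 36 genes, 33305 over the 8 libraries. Its level was 432 and 460.4 CPM in untreated control cells, 481 and 628 CPM in treated control cells, 380.3 and 408 CPM in untreated libraries labelled knockout and 428 and 384 CPM in treated libraries labelled knockout. The treated control libraries were the highest, above all other libraries. In edgeR's quasi-likelihood test *Eprs* passed in none of the 5 comparisons, with adjusted p between 0.0789 and 0.906.

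The first comparison set the untreated libraries labelled knockout against untreated control cells. In this design the deletion of *Lnc-Nr6a1* and other differences of the cloned cells from control cannot be told apart. A gene was called at a Benjamini-Hochberg adjusted p below 0.05 over all genes tested and an absolute log2 fold change above 0.5, the thresholds of the study's methods. None of the 36 synthetases was called by edgeR, where 1.83% of all 13028 genes were. At an unadjusted p below 0.05 the count was also 0 of 36, against 14.9% of all genes. DESeq2 called 0 of the 36 and 408 of the 20463 genes it was run on. The log2 fold changes of the members lay between −0.45 and 0.43, with 17 above and 19 below 0. Their median was −0.02, against 0.02 over all genes tested. The cytosolic genes had a median of −0.05 (9 above 0 and 11 below) and the mitochondrial genes a median of 0.04 (8 above and 8 below). Without replicate 1 of the untreated libraries labelled knockout the cytosolic median was −0.13, and without replicate 2 it was 0.03.

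*Vars2* and *Vars* were above control in the untreated libraries labelled knockout but did not pass the test. The untreated control libraries had 30.9 and 25.6 CPM of *Vars2* and those labelled knockout 40.1 and 36.3 CPM (log2 fold change 0.43, SE 0.20, edgeR adjusted p = 0.358). For *Vars*, control had 275 and 240.0 CPM and the libraries labelled knockout 285 and 307 CPM (log2 fold change 0.20, SE 0.15, edgeR adjusted p = 0.591). In both genes the groups did not overlap, which was also so, in this direction, for 26.8% of all genes.

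The members on chromosomes 3 and 7 were counted apart, because genes of these chromosomes were known from earlier results to be lower in the libraries labelled knockout. *Sars*, *Tars2* and *Wars2* lie on chromosome 3, and *Cars*, *Ears2*, *Nars2* and *Sars2* on chromosome 7. All 7 had a log2 fold change below 0 in the untreated comparison, with a median of −0.19, and 4 of them did not overlap with control, against 25.2% of all genes in this direction, 386 of the 641 genes tested on chromosome 3 and 460 of the 943 on chromosome 7. None of the 7 was called. The medians over all genes tested were −0.34 on chromosome 3 and −0.25 on chromosome 7, and the other 29 synthetases had a median of 0.05. Between the treated genotypes 5 of the 7 were below 0, with a median of −0.16, against −0.10 for the other 29.

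The response to TGF-β was then followed in control cells. *Vars* and *Vars2*, the cytosolic and the mitochondrial valyl enzyme, fell after 2 h, and no synthetase was called as higher. These 2 were the called genes of the 36, where 9.16% of all genes were called, 4.69% as higher and 4.47% as lower. *Vars* went from 275 and 240.0 CPM to 136 and 109 CPM, from a mean of 258 ± 25.0 to 122 ± 19.1 CPM (SD, n = 2). Both treated libraries were below both untreated libraries, and the difference was 2.10-fold (log2 fold change −1.07, SE 0.16, edgeR adjusted p = 0.00441). *Vars2* went from 30.9 and 25.6 CPM to 18.6 and 13.7 CPM, 1.75-fold lower and again without overlap (log2 fold change −0.80, SE 0.20, edgeR adjusted p = 0.0409). Over the alternatives the adjusted p of *Vars* lay between 7.82e-08 and 0.0582, and that of *Vars2* between 0.0112 and 0.266. The number of called synthetases was 0 without replicate 1 of untreated control cells, where *Vars* was at −0.97 and *Vars2* at −0.67, and 1 without replicate 2 of them or without any of the 4 libraries labelled knockout. It was 5 without replicate 1 of treated control cells, when *Gars*, *Lars* and *Rars* were called as higher beside the valyl pair. Without replicate 2 of treated control cells *Vars2* was at −0.60 and not called, while *Lars2* as higher and *Mars* as lower were called beside *Vars*. Calls over all genes moved with these libraries as well, from 1194 of 13028 to 145 of 13748 and 314 of 13749 without replicates 1 and 2 of untreated control cells, and to 1484 of 13333 and 971 of 13304 without replicates 1 and 2 of treated control cells. Without a library labelled knockout they were 612 to 1115.

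*Vars* (ENSMUSG00000007029.9) and *Vars2* (ENSMUSG00000038838.9) both lie on chromosome 17, 639 kb apart. On NCBIM37, *Vars* spans chr17:35137932-35153267 on the plus strand and *Vars2* chr17:35792579-35804537 on the minus strand. Exons of *Vars* overlap those of *D17H6S56E-5*, on the other strand, by 304 bases. *D17H6S56E-5* had 399 and 496 CPM in untreated control cells, 562 and 538 CPM in treated control cells, 360.4 and 478 CPM in untreated libraries labelled knockout and 342 and 308 CPM in treated libraries labelled knockout. Its treated control libraries were thus its highest, where those of *Vars* were its lowest. The exons of *Vars2* overlap no gene on the other strand in this annotation.

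**Figure D2:**
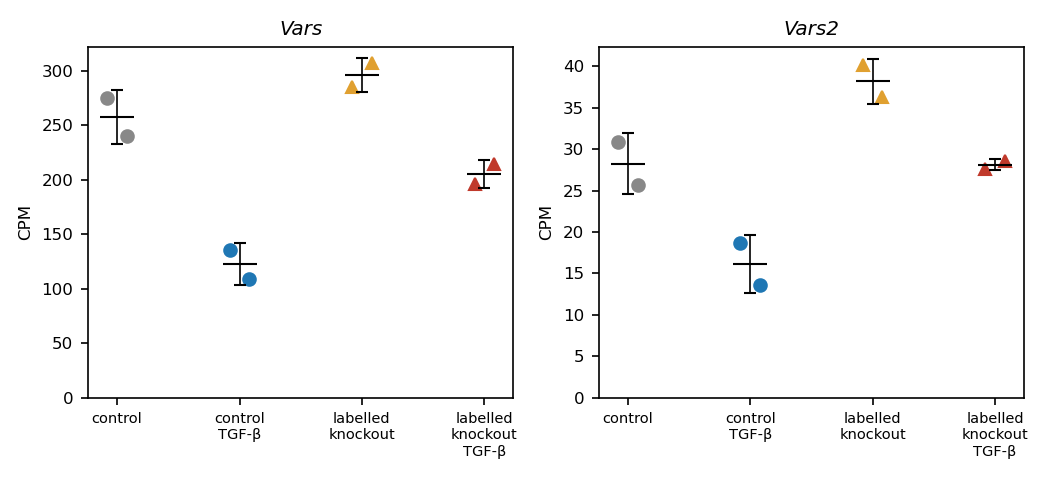
*Vars* and *Vars2* in CPM, on linear axes from 0. Each point is a library, horizontal marks and bars are the mean ± SD of 2 libraries, and the treated control libraries (136 and 109 CPM for *Vars*, 18.6 and 13.7 CPM for *Vars2*) sit below those of the other 3 groups.

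Of the other 34 synthetases, 6 had an unadjusted p below 0.05 in control cells and missed the adjusted threshold, so that 8 of 36 members passed the unadjusted one, against 26.8% of all genes. Above their untreated level were *Gars* (log2 fold change 0.51, edgeR adjusted p = 0.0890), *Rars* for arginine (0.50, adjusted p = 0.0916), *Lars* for leucine (0.41, adjusted p = 0.159) and *Nars* (0.36, adjusted p = 0.156). Below it were *Pars2* (−0.96, adjusted p = 0.121) and *Mars*, the methionyl enzyme (−0.42, adjusted p = 0.177). *Gars* was at 324 and 360.4 CPM in untreated and 412 and 560.0 CPM in treated control cells, so its treated replicates were farther apart than its untreated ones. *Pars2* was at 14.6 and 7.81 CPM and then at 5.25 and 6.24 CPM, without overlap. *Mars* shares 68 bases of exon with *Ddit3* on the other strand.

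By compartment, 15 of the 20 cytosolic genes had a log2 fold change above 0 in control cells, with a median of 0.18, and 12 of the 16 mitochondrial genes had one below 0, with a median of −0.18. Over all genes tested the median was 0.02 and 51.4% were above 0. In the cytosolic set 10 genes were higher and 3 lower without overlap of the libraries, and in the mitochondrial set 0 were higher and 5 lower. Over all genes these shares were 27.4% and 26.3%. Of the 8 genes of the multisynthetase complex, 7 were above 0, with a median of 0.20, and *Mars* was below.

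The cytosolic values rested on replicate 2 of treated control cells. There the cytosolic synthetases were above replicate 1 in 17 of 20 genes, with a median difference of 0.32 in log2 CPM, and the mitochondrial genes below it in 11 of 16, with a median difference of −0.25. In the other groups the median absolute replicate difference of either set was 0.08 to 0.21. Without replicate 2 of treated control cells the cytosolic median was −0.0019, with 10 genes above and 10 below 0, and the mitochondrial median was −0.10. Without replicate 1 they were 0.29 and −0.44. *Lars2*, the mitochondrial leucyl enzyme, showed the widest replicate difference in this group, at 43.1 and 13.1 CPM, against 23.9 and 21.8 CPM in untreated control cells. *AY036118*, a gene known to collect reads of ribosomal RNA, was at 1442 and 526 CPM in these same treated libraries and at 3035 and 4609 CPM in untreated control cells. In untreated libraries labelled knockout *AY036118* was at 1728 and 2574 CPM and *Lars2* at 25.1 and 32.2 CPM. In the treated ones *AY036118* was at 3335 and 1234 CPM and *Lars2* at 21.2 and 27.7 CPM, in the opposite order. The part of ribosomal RNA reads in the synthetase values was not tested.

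In the libraries labelled knockout, TGF-β gave no called synthetase by edgeR, where 6.82% of all genes were called. At an unadjusted p below 0.05 there were 5 of 36, against 22.7% of all genes, 1 higher and 4 lower. DESeq2 called *Vars*, among 1192 of the 20463 genes it was run on. *Vars* went from 285 and 307 CPM to 196 and 214 CPM, without overlap (log2 fold change −0.53, SE 0.15, edgeR adjusted p = 0.0741, with 0.0343 to 0.330 over the alternatives). *Vars2* went from 40.1 and 36.3 CPM to 27.6 and 28.6 CPM, also without overlap (−0.44, SE 0.20, edgeR adjusted p = 0.229). *Vars* was called when either treated control library was left out, at −0.50 each time.

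The other genes at an unadjusted p below 0.05 were *Cars2*, the mitochondrial cysteinyl enzyme (log2 fold change −0.69, edgeR adjusted p = 0.0771), *Yars2* (−0.49, adjusted p = 0.107), *Pars2* (−1.02, adjusted p = 0.140) and *Qars* for glutamine, the only one above its untreated level (0.30, adjusted p = 0.198). *Pars2* was at 6.61 and 9.57 CPM in untreated and 4.08 and 3.97 CPM in treated libraries labelled knockout. It had the lowest log2 fold change of the 36 genes here and the lowest after *Vars* in control cells, with an SE of 0.37 and 50 counts in each treated library labelled knockout.

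The medians of the compartments lay on either side of 0 in these libraries as well. Of the 20 cytosolic genes 16 had a log2 fold change above 0, with a median of 0.10, and of the 16 mitochondrial genes 15 had one below 0, with a median of −0.29, where the median of all genes tested was 0.00 and 49.9% were above 0. The exception among mitochondrial genes was *Fars2*, for phenylalanine. Without overlap of the libraries 11 cytosolic genes were higher and 2 lower, and 1 mitochondrial gene was higher and 9 lower, against 28.4% and 28.3% of all genes. With any library left out the cytosolic median stayed between 0.10 and 0.21 and the mitochondrial median between −0.36 and −0.23. The cytosolic median was 0.21 without replicate 2 of the treated libraries labelled knockout and 0.16 without replicate 1 of the untreated ones. The 4 libraries of this comparison are not among those of the comparison in control cells.

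**Figure D3:**
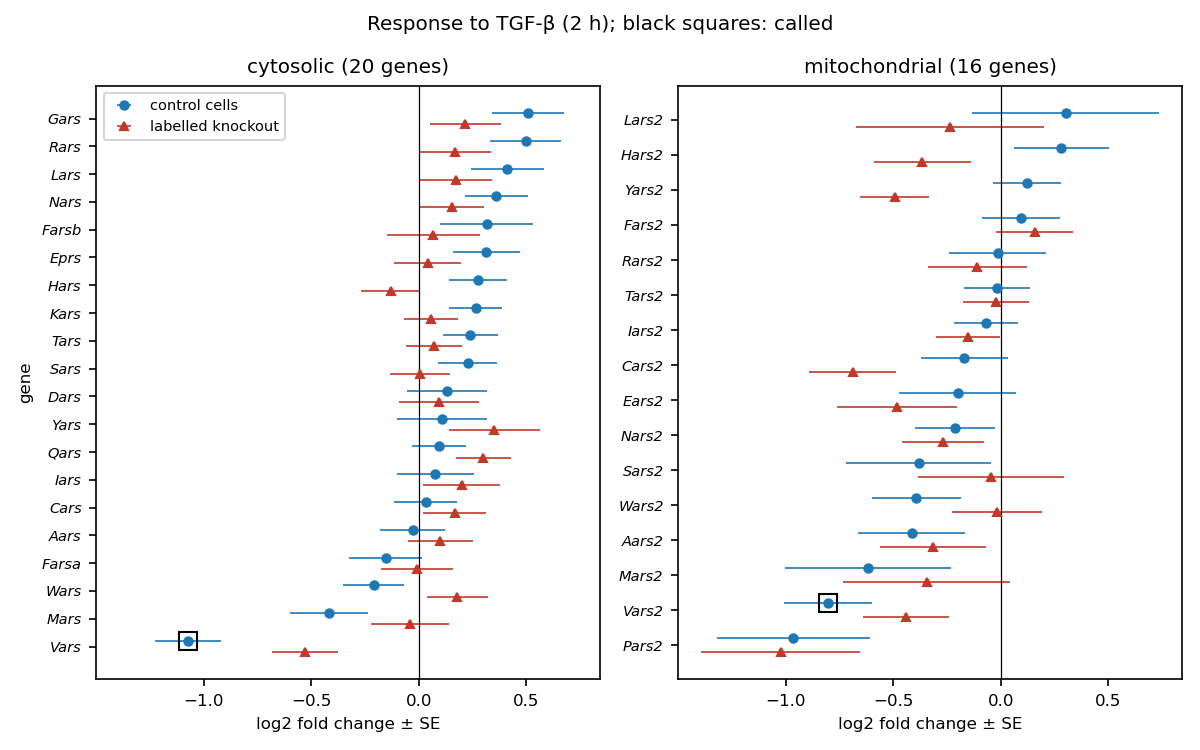
Log2 fold change of each synthetase after TGF-β, with its standard error, in control cells (blue circles) and in libraries labelled knockout (red triangles), cytosolic genes on the left and mitochondrial genes on the right. Black squares mark the called genes, *Vars* at −1.07 and *Vars2* at −0.80 in control cells, and most cytosolic points lie right and most mitochondrial points left of 0.

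The 5 cytosolic genes with a TGATGNAA match, whose sequences are given above, were all above 0 after TGF-β in the libraries labelled knockout, with a median log2 fold change of 0.20. Values ran from 0.07 for *Tars* to 0.35 for *Yars*, and none was called. In control cells 4 of the 5 were above 0, with a median of 0.11, and *Aars* was at −0.03. The medians of all 20 cytosolic genes were 0.10 and 0.18 in these comparisons. The 20 include these 5 and the cytosolic genes without a window, which were not searched.

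The genotypes under TGF-β were compared between the treated libraries, where the deletion and other differences of the cloned cells again cannot be told apart. Libraries labelled knockout had more *Vars* and *Vars2* RNA than control, and no synthetase was called as lower. These 2 of 36 compare with 15.0% of all genes called, 8.47% as higher and 6.57% as lower. *Vars* was at 196 and 214 CPM against 136 and 109 CPM, or 205 ± 12.5 against 122 ± 19.1 CPM (SD, n = 2). The groups did not overlap and differed 1.68-fold (log2 fold change 0.74, SE 0.15, edgeR adjusted p = 0.0144, with 0.000237 to 0.107 over the alternatives). *Vars2* was at 27.6 and 28.6 CPM against 18.6 and 13.7 CPM, 1.74-fold higher and without overlap (log2 fold change 0.80, SE 0.20, edgeR adjusted p = 0.0295, with 0.00610 to 0.131 over the alternatives). With offsets for GC content, described below, the values were 0.30 for *Vars* and 0.43 for *Vars2*, and neither was called. This comparison and the TGF-β comparison in control cells share the treated control libraries, in which both genes were at their lowest. *D17H6S56E-5*, whose exons overlap those of *Vars*, was lower in the libraries labelled knockout (log2 fold change −0.76, SE 0.17, edgeR adjusted p = 0.0197).

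How many synthetases were called in this comparison depended on single libraries. It was 11 without replicate 1 of treated control cells, when *Wars* (tryptophan), *Aars2*, *Lars2*, *Vars* and *Vars2* were called as higher and *Eprs*, *Farsb*, *Gars*, *Hars2*, *Lars* and *Rars* as lower. Without replicate 2 of treated control cells only *Mars* was called, with a log2 fold change of 0.70. Without replicate 2 of the treated libraries labelled knockout no synthetase was called, and without replicate 1 of them, or without either untreated library labelled knockout, only *Vars* was. In these 4 fits *Vars* stayed between 0.69 and 0.81 and *Vars2* between 0.79 and 0.83. They were both at 0.60 without replicate 2 of treated control cells, and at 0.93 and 1.06 without replicate 1. In a fit of the 4 libraries alone no synthetase was called, and *Vars* had a log2 fold change of 0.75 (edgeR adjusted p = 0.0770). The calls over all genes, 1959 of 13028 with every library, were 2762 of 13333 and 1198 of 13304 without replicates 1 and 2 of treated control cells. They were 1226 of 13363 and 477 of 13352 without replicates 1 and 2 of the treated libraries labelled knockout, 1326 and 1319 without either untreated one, and 410 of 12791 in the fit of 4 libraries.

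At an unadjusted p below 0.05, 13 of the 36 genes differed between the treated libraries, 5 higher and 8 lower, against 31.4% of all genes. Beside the valyl pair, *Wars* (log2 fold change 0.45, edgeR adjusted p = 0.0621), *Mars* (0.41, adjusted p = 0.150) and *Qars* (0.32, adjusted p = 0.121) were above control. Below it were *Yars2* (−0.49, adjusted p = 0.0657), *Sars* (−0.41, adjusted p = 0.0735), *Eprs* (−0.45, adjusted p = 0.0789), *Hars* (−0.36, adjusted p = 0.105), *Hars2* (−0.55, adjusted p = 0.119), *Gars* (−0.41, adjusted p = 0.128), *Tars* (−0.29, adjusted p = 0.154) and *Lars* (−0.38, adjusted p = 0.159). *Hars* and *Hars2*, the histidyl enzymes, start close together on opposite strands and share 195 bases of exon. The cytosolic genes had a median of −0.19 (8 above 0 and 12 below) and the mitochondrial genes one of −0.05 (7 above and 9 below), where the median of all genes was −0.01. Without replicate 2 of treated control cells the cytosolic median was 0.02 and the mitochondrial −0.26, and without replicate 1 they were −0.33 and 0.06.

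**Figure D4:**
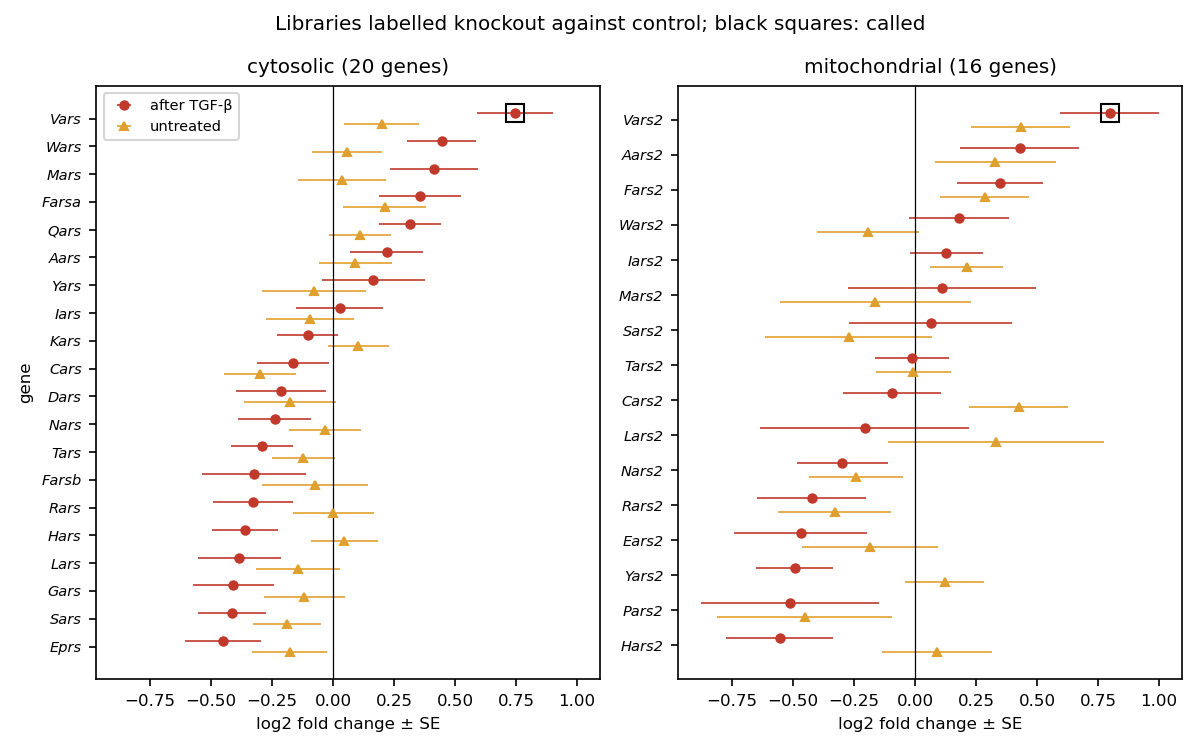
Log2 fold change of each synthetase between libraries labelled knockout and control cells, with its standard error, after TGF-β (red circles) and untreated (orange triangles). Black squares mark the called genes, *Vars* at 0.74 and *Vars2* at 0.80 after TGF-β, and the untreated values lie between −0.45 and 0.43.

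Whether TGF-β acted otherwise on the synthetases of either genotype was tested by the interaction of genotype and treatment. No member was called, as was no gene of the 13028 (0.00%) by edgeR. DESeq2 called 0 of the 36 and 31 of the 20463 genes it was run on. At an unadjusted p below 0.05 in edgeR there were 2 of 36, against 8.70% of all genes. The 2 were *Yars2*, with a difference of −0.61 (SE 0.23, edgeR adjusted p = 0.508), and *Vars*, with a difference of 0.54 (SE 0.22, adjusted p = 0.527). For *Vars2* it was 0.36 (SE 0.29, adjusted p = 0.761). The fall of the valyl pair in control cells was thus not shown to differ from the smaller values in the libraries labelled knockout.

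The values of the synthetases varied with the base composition of their exons. The GC content of the members ran up to 60.3% for *Vars*, followed by *Sars2* at 60.1%, *Aars2* at 60.0% and *Vars2* at 58.4%, with a median of 50.4%, against 49.7% for all genes. Across the 36 genes, which share the libraries and so are not independent, Pearson's r of the log2 fold change with GC was −0.55 for TGF-β in control cells and 0.63 for the genotype after TGF-β, against −0.15 and 0.29 over all genes. It was 0.38 for the untreated genotypes and −0.22 for TGF-β in the libraries labelled knockout, against 0.21 and −0.04 over all genes. With offsets that remove a trend on GC from each library, chosen after seeing the data, *Vars* in control cells was at −0.74 (edgeR adjusted p = 0.00397) and *Vars2* at −0.56 (adjusted p = 0.0471), and both were still called. Between the treated libraries the same offsets gave 0.30 for *Vars* (adjusted p = 0.107) and 0.43 for *Vars2* (adjusted p = 0.0945), and neither was called. *Sars* (−0.54, adjusted p = 0.0266) was then called as lower.

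**Figure D5:**
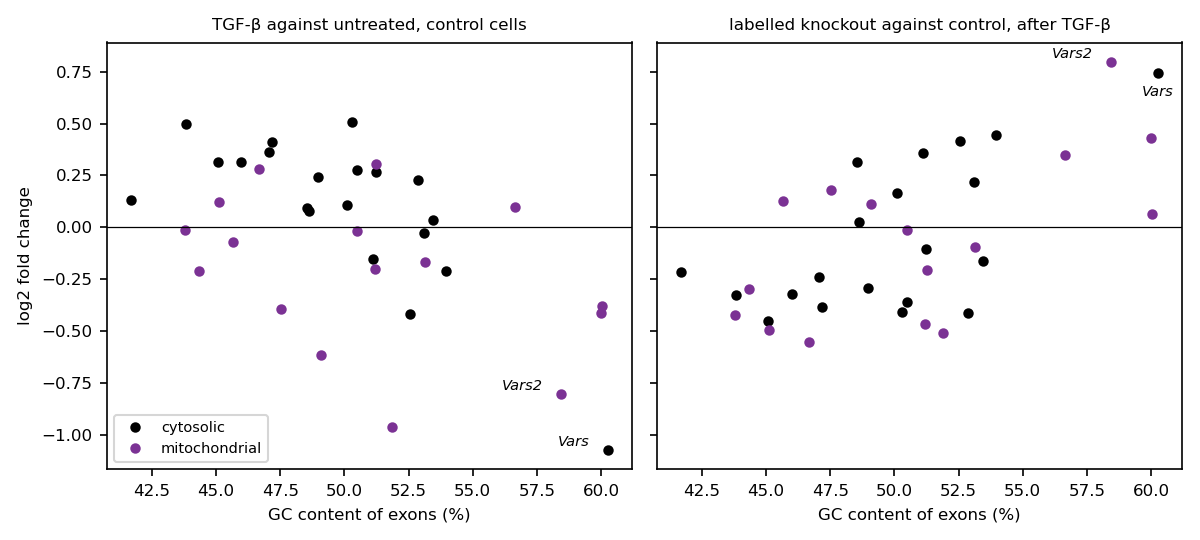
Log2 fold change of the 36 synthetases against the GC content of their exons in percent, for TGF-β in control cells (left) and for libraries labelled knockout against control after TGF-β (right). Black points are cytosolic and purple points mitochondrial genes, and *Vars* (60.3%) and *Vars2* (58.4%) lie at the GC-rich end, lowest or nearly so on the left and highest on the right.

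Proteins that work with the synthetases were listed as 17 partner genes and 9 elongation factors, all of which were tested. No gene of either list was called between the untreated genotypes, 1 partner gene was called by TGF-β in control cells, 1 by TGF-β in the libraries labelled knockout and 2 with 1 elongation factor by genotype under TGF-β, where 1.83%, 9.16%, 6.82% and 15.0% of all genes were called. After TGF-β in control cells *Sepsecs*, which makes selenocysteine on its tRNA, fell (log2 fold change −0.66, edgeR adjusted p = 0.0453), a call lost in 11 of 14 alternatives and in each case where a library was left out. In the libraries labelled knockout *Mtfmt*, which formylates the mitochondrial initiator tRNA, fell (−1.30, adjusted p = 0.0260), a call lost in 5 of 14 alternatives, with a value of −0.98 without replicate 2 of the treated libraries labelled knockout. In the genotype comparison under TGF-β *Aimp1*, the scaffold of the multisynthetase complex (−0.55, adjusted p = 0.0326), *Ssb*, which binds new tRNA transcripts (−0.73, adjusted p = 0.0443), and *Gfm1*, a mitochondrial elongation factor (−0.65, adjusted p = 0.0280), were lower in the libraries labelled knockout. Without replicate 2 of treated control cells these 3 were at −0.41, −0.39 and −0.44, and they lost their calls in 11, 10 and 9 of 15 alternatives. *Aimp1* and *Gfm1* lie on chromosome 3.

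Of the 28 genes listed as targets or partners of ATF4, all tested, 1 was called between the untreated genotypes, 2 by TGF-β in control cells, 4 by TGF-β in the libraries labelled knockout and 5 by genotype under TGF-β, where 1.83%, 9.16%, 6.82% and 15.0% of all genes were. Called genes of this list lay on both sides of 0. The medians of the list were −0.06, 0.21, 0.24 and 0.02 in these comparisons. *Sesn2*, a stress-induced inhibitor of mTORC1, fell with TGF-β in control cells (log2 fold change −1.75, edgeR adjusted p = 0.00175), a call kept in all 14 alternatives. Under TGF-β it was above control where the label was knockout (1.16, adjusted p = 0.00776, lost in 2 of 15). *Ddit4*, another such inhibitor, rose in control cells (1.67, adjusted p = 0.0250) and in the libraries labelled knockout (2.06, adjusted p = 0.0117). These calls were lost in 4 and 2 of 14 alternatives, with *Ddit4* at 0.92 in control cells without replicate 1 of the treated ones. The other genes of this list called by TGF-β in the libraries labelled knockout were *Slc3a2*, the heavy chain of amino acid transporters (0.66, edgeR adjusted p = 0.0250, lost in 3 of 14), and *Slc7a11*, the cystine transporter (1.11, adjusted p = 0.0251, lost in 5 of 14), which rose, and *Sesn2*, which fell. *Slc7a11* was lower with the knockout label than in control, both untreated (−1.20, adjusted p = 0.0416), a call lost in 7 of 14 alternatives. *Cth*, an enzyme of cysteine synthesis, was lower in treated libraries labelled knockout than in treated control cells (−2.0, adjusted p = 0.00408), a call kept in all 15 alternatives. *Slc7a11* and *Cth* lie on chromosome 3.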

How the data were processed

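The data are RNA-seq of NMuMG cells in 4 conditions, each with 2 biological replicates. Beyond the word biological, how the replicates were grown is not given in the sources used here, so p-values measure the spread between these libraries. The authors deposited raw counts of reads per gene, without normalization, in a table with 1 column per library, and all 8 columns entered the analysis. In the methods of the paper, reads were aligned with subjunc of Rsubread to mm10 and mm9, duplicates were removed and the counts were tested with DESeq2. The submitters' processing notes name HISAT2, limma and mm10. Neither the counter nor its strand setting is given in the sources used here, and paper and labels differ on library kit, sequencer and read layout. The table lists 37310 gene identifiers in the order of the GENCODE vM1 annotation (NCBIM37), and from that annotation symbols, positions, exon lengths and GC content were taken.

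For the tests, edgeR 4.0.16 (R 4.3.3) was used. The 13028 genes that passed filterByExpr by group were scaled by TMM and fitted with glmQLFit in a model of the 4 groups on all 8 libraries, without a block, and each contrast was put to glmQLFTest with Benjamini-Hochberg adjustment. The common biological coefficient of variation was 0.180, with 4 residual and 5.50 prior degrees of freedom. Calls needed an adjusted p under 0.05 together with a log2 fold change of over 0.5 in either direction, the interaction at the adjusted p alone. Standard errors were derived from edgeR's F statistic, whose square root is the ratio of the log2 fold change to its error. The procedure was also run on simulated counts, drawn with the same spread for all genes and groups, and no result given here rests on it. The replicate differences of compartments used log2(CPM + 0.5).

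The members and the lists of partner, elongation, ATF4, ribosomal RNA and marker genes were chosen with earlier results of these data known. Values in every library were given for members called in a comparison and for the member with the most counts, and for other genes where a result touched them. From the partner, elongation and ATF4 lists, called genes with the 3 smallest p of a comparison could be named. *Sesn2* in the libraries labelled knockout was named, *Gars*, *Pars2*, *Lars2*, *AY036118* and *D17H6S56E-5* were given by library, and synthetases with an unadjusted p below 0.05 by their log2 fold change, after their values were seen. The alternatives were DESeq2 1.42.0, RLE factors, no filter on low counts, the replicate number as a block, a fit of only the compared libraries, calls by adjusted p alone, each library left out in turn and, added after seeing the data, offsets for GC content and exchanged replicate numbers. Promoter sequences are from RefSeq on GRCm38.p6, and coordinates of genes on NCBIM37 were not converted. Protein sequences were not used here. A further promoter stretch is not reported here.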

Additional observations from a re-analysis of the deposited data

How the results depend on the processing

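Between untreated genotypes and in the interaction, no synthetase was called under any alternative run. RLE factors, no filter on low counts and no fold change threshold kept the number of called synthetases in every comparison. For TGF-β in control cells it was 2, with 1 in a fit of the 4 libraries of the comparison (*Vars*) and 0 to 5 with a library left out. For TGF-β in the libraries labelled knockout it was 0, with 1 in the fit of 4 libraries and with DESeq2 (*Vars* in both), 1 with the offsets for GC content (*Cars2*) and 0 to 1 with a library left out. For the genotypes after TGF-β it was 2, with 0 in the fit of 4 libraries, 1 with the GC offsets (*Sars*) and 0 to 11 with a library left out. Calls over all genes moved too, over 13028 genes in the main fit and 20463 with DESeq2. From 1194, 889 and 1959 in these 3 comparisons they went to 470, 938 and 410 in the fit of 4 libraries, to 1431, 1192 and 2087 with DESeq2, to 1568, 1358 and 1926 with the GC offsets, and to 145 to 1484, 136 to 1381 and 477 to 2762 with a library left out. The fit of 4 libraries has fewer samples, yet its calls went up as well as down. The cause of these moves was not tested in any setting. Where an arm was left with 1 library, its spread was assumed to be like that of the other groups. *Eprs* changed sign for TGF-β in the libraries labelled knockout, with values from −0.015 to 0.15 when a library was left out, below 0 without replicate 1 of the untreated and without replicate 1 of the treated ones.

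The replicate numbers are shared across groups in the labels, but nothing says that they mark a shared culture or day, and the deviations of same-numbered libraries correlated at 0.30 between untreated and treated control cells, 0.098 between the untreated genotypes, −0.0092 between untreated and treated libraries labelled knockout and −0.47 between the treated genotypes. With the replicate block the number of called synthetases was 0, 2, 0, 2 and 0 in the 5 comparisons, as without it, and over all genes 1490 against 1959 between the treated genotypes. With the 2 numbers exchanged within the treated knockout group it was 2 of the synthetases and 2809 of all genes. Beyond this, 733 values of single genes and compartment medians stayed on their side of the threshold or within the replicate spread, while 91 lost a call, 16 gained a call and 13 medians went beyond that spread. The shallowest library held 4297832 counts. How depth limits the low mitochondrial genes was not tested.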

Other observations

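The 2 structural classes of synthetases, which differ in the fold of the catalytic domain, are split here into 18 class I genes, 17 class II genes and *Eprs*, which holds a domain of each. After TGF-β the class I genes had a median log2 fold change between genotypes of 0.07, with 10 above 0 and 8 below, and the class II genes one of −0.24, with 5 above 0 and 12 below, where the median of all genes was −0.01. Both called genes, *Vars* and *Vars2*, are of class I. For TGF-β in control cells the medians were −0.04 for class I and 0.13 for class II, and for TGF-β in the libraries labelled knockout −0.07 and 0.0051. Between the untreated genotypes they were 0.02 and −0.03. Between the treated genotypes the cytosolic median moved with single treated control libraries, as given above. How the class medians move with them was not tested. No class II gene was called in these comparisons by edgeR. Of class II, 5 had an unadjusted p below 0.05 between the treated genotypes, 3 and 1 in the responses to TGF-β and 0 between the untreated genotypes. Of the 18 class I genes these counts were 7, 5, 4 and 0 in the same order. Over all genes these shares were 31.4%, 26.8% and 22.7%, and 14.9% between the untreated genotypes, and the shares called were 15.0%, 9.16%, 6.82% and 1.83% in the same order. DESeq2 called none of the class II genes either.

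The 8 genes of the multisynthetase complex had a median log2 fold change of 0.13 after TGF-β in the libraries labelled knockout, with 7 above 0, and the other 12 cytosolic genes one of 0.09, with 9 above 0. Between the treated genotypes the medians were −0.16 and −0.20. The median of all cytosolic genes moved there with single treated control libraries, as given above.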
